A study of Mus musculus with 6 samples.

Results

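This section describes 90 mouse transcripts known in the deposited table by a RIKEN clone name (ending in Rik) or a gene model number (Gm and digits) whose level differed between the p53 genotypes of intestinal tumor organoids. A row was taken when it reached at least 4 rpkm (reads per kilobase of gene model, scaled to the mapped reads of the library) in at least 1 library, when its highest genotype mean was at least 3 times its lowest, and when both libraries of the highest genotype exceeded both of the lowest. The defensin row Gm15284 was left aside by definition. The table had 36172 rows, of which 12165 had such a symbol, 541 of those passed the 4 rpkm filter and 90 met the rest. The members were thus chosen by their rpkm in these same 6 libraries, and their own values are described below without a test.

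The organoids were grown from small intestinal tumors of C57BL/6 mice aged 15 to 20 weeks that carried the Apc(D716) allele, which truncates Apc at codon 716, and whose tumors had lost the other Apc copy, so that all 6 libraries shared Apc loss. In p53(+/+) organoids both Trp53 copies were normal. In p53(flox/flox) organoids both copies held a blocked allele that acts as a null. In p53(M/M) organoids tamoxifen and villin-CreER, a Cre driven in gut epithelium, had switched both copies to the missense form R270H. Organoids of 2 mice per genotype were prepared separately, giving 2 poly(A) libraries each. Exposure to tamoxifen is described for p53(M/M) mice alone, so it cannot be told apart from that genotype.

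A RIKEN name was given to a full-length cDNA clone and a Gm number to a computed gene model before anyone had assigned a function, so such symbols hold both protein-coding genes that were named later and RNAs without a known product. p53 is a transcription factor that activates genes of cell cycle arrest, DNA repair and cell death after stress. The R270H change lies in the part of the protein that contacts DNA, and such mutants largely lose binding to the usual p53 sites. The intestinal epithelium holds stem cells, absorptive enterocytes, mucus-secreting goblet cells, and Paneth cells, which secrete antimicrobial alpha-defensins.

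The label of uncharacterized transcripts held for part of the members. By RefSeq on GRCm38, 43 of the 90 had a newer symbol, 45 kept the Rik or Gm name, and Gm15340 and Gm4009 had no record. RefSeq listed 57 as protein coding (63.3%), 24 as long non-coding RNA (26.7%) and 9 as another or no class. Among the other 451 Rik and Gm rows that passed the filter 13.1% were long non-coding, and among rows with other symbols 0.284%. Newer symbols are given in parentheses below.

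No value in the table was below 1 rpkm, so anything lower stands at a floor of 1. A ratio against a genotype at that floor is a lower bound, and 25 members had both libraries of their lowest genotype there. The table holds no read counts, and depth was not estimated here. The libraries of a genotype agreed unequally: the typical SD of log2 values over all rows was 0.0686 in p53(+/+), 0.366 in p53(flox/flox) and 0.0921 in p53(M/M). The 2 p53(flox/flox) libraries were at least 2-fold apart in 26 of the 90 members, against 0 in p53(+/+) and 3 in p53(M/M). Trp53 stood at 75.9 and 74.3 rpkm in p53(+/+), 1.73 and 2.48 in p53(flox/flox) and 72.8 and 82.7 in p53(M/M), as the labels say. The p53 targets Cdkn1a, an inhibitor of cell cycle kinases, and Mdm2, which degrades p53, stood at 110 and 122 and at 40.5 and 44.2 rpkm in p53(+/+), 11.8 and 27.0 and 14.4 and 16.9 in p53(flox/flox), and 31.9 and 29.5 and 23.0 and 22.5 in p53(M/M). Of 31 listed p53 target genes 28 passed the filter, and limma on log2(rpkm + 1) called 16 lower in p53(flox/flox), where 6.9% of all rows were, and 18 lower in p53(M/M), where 6.36% were. None was called higher, and none had an unadjusted p under 0.05 in that direction. Most of these calls were lost without either p53(+/+) library or either p53(M/M) library. So were most calls over all rows, since such fits leave a genotype with a lone library. All 7 epithelial markers passed the filter and 0 of 6 fibroblast markers did. Of the immune markers Cd68 alone passed, at 10.2 and 9.87 rpkm in p53(+/+), 2.06 and 11.1 in p53(flox/flox) and 2.22 and 2.41 in p53(M/M), and of the endothelial markers Cdh5 alone, at 8.88 and 9.35, 1 and 3.30, and 1.04 and 1. The summed level of the markers that passed also moved for goblet cells, from 121 to 149 rpkm in p53(+/+) to 59.3 to 67.6 in p53(M/M), with 115 and 40.4 in p53(flox/flox). Enterocyte markers summed to 36.3 and 46.8 rpkm in p53(+/+), 16.2 and 5.31 in p53(flox/flox), and 29.8 and 19.6 in p53(M/M). In p53(M/M) Fabp2 was lower (27.6 and 31.4 rpkm in p53(+/+), 12.1 and 10.8), while Alpi and Fabp1 overlapped p53(+/+). Of the tuft cell markers Avil alone passed, at 19.6 and 22.6, 1 and 33.5, and 34.9 and 31.6. Of the enteroendocrine markers Chgb alone passed, at 7.41 to 10.8 rpkm in p53(+/+) and 1 to 2.15 in the others. The 4 stem cell markers summed to 48.2 to 66.3 in p53(+/+), 92.5 to 133 in p53(flox/flox) and 71.6 to 88.9 in p53(M/M). In p53(M/M) Smoc2 and Olfm4 were higher than in p53(+/+). Ascl2 was lower there, at 8.16 and 10.8 against 21.1 and 17.1 rpkm, and Lgr5 stood at 10.1 and 12.4 against 17.2 and 10.8. The 4 Paneth cell markers summed to 1258 and 1593 rpkm in p53(+/+), 552 and 561 in p53(flox/flox), and 367 and 403 in p53(M/M). Mmp7 set the order of the mutant genotypes in that sum, and the other 3, Defa24, Ang4 and Lyz1, had lower means in p53(flox/flox) than in p53(M/M). The part of cell makeup in the members' values was not tested. In bulk samples fewer cells of a type and less RNA per cell cannot be told apart.

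Promoter sequence was available for 67 members, as 75 windows that run from 250 bases before to 50 bases after a RefSeq start site on GRCm38. They were searched on both strands for the 10-base p53 consensus half-site, for CTTTGAT, the core bound by the Wnt effectors TCF and LEF, and for GAAANNGAAA, the core of the interferon-stimulated response element. The half-site was in 8 of the 75 windows (10.7%) and in 6.61% of the 10308 windows of all rows that passed the filter. CTTTGAT was in 6 (8%) against 2.68%, and GAAANNGAAA in 3 (4%) against 2.74%. A full p53 site, made of a pair of half-sites with at most 13 bases between, was in 0 of the 75 windows and in 0.0388% of all of them. By pattern, the half-site was in 3 of 17 windows of members low only in p53(M/M), 2 of 14 high only in p53(+/+), 1 of 11 low only in p53(flox/flox), 1 of 8 high only in p53(flox/flox), 1 of 3 low only in p53(+/+) and 0 of 22 high only in p53(M/M). These are matches of letters, not shown binding sites.

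The following windows belong to members described in the patterns below and are shown in pairs that share a motif and differ in pattern. Bases matching the motif are in capitals, each window reads 5′ to 3′ along its gene, and all are RefSeq GRCm38.p6 sequence. The first pair holds a p53 half-site. It began 81 bases before a downstream start site of 6530418L21Rik (Inka2), high only in p53(+/+), whose window at the upstream start site held none. In Gm11062 (Mptx2), low only in p53(M/M), it began 207 bases before the start site.
6530418L21Rik, chr3:105705208-105705507, plus strand: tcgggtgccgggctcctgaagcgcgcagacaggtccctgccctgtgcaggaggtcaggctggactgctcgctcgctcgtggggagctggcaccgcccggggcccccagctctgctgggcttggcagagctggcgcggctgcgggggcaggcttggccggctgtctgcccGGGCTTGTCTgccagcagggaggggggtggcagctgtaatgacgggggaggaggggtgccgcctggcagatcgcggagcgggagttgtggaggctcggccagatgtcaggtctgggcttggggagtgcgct
Gm11062, chr1:173277707-173278006, minus strand: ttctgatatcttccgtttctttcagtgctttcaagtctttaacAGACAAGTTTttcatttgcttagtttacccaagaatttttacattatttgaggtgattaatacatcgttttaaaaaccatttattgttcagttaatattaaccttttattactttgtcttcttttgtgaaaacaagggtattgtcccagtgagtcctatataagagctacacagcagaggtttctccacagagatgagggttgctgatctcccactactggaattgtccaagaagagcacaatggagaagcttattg
Both alpha-defensins of the next pair hold CTTTGAT in 2 places, read here on the other strand, at 127 and 87 bases before the start site of Gm10104 (Defa35), low only in p53(flox/flox), and at 110 and 70 bases before that of Gm15308 (Defa32), high only in p53(M/M).
Gm10104, chr8:21064788-21065087, plus strand: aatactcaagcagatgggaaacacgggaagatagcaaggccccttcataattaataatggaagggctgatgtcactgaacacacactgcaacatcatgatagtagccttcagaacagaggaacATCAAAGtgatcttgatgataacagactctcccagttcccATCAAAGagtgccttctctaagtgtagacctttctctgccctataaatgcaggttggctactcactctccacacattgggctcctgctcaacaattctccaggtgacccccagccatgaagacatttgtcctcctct
Gm15308, chr8:21528780-21529079, plus strand: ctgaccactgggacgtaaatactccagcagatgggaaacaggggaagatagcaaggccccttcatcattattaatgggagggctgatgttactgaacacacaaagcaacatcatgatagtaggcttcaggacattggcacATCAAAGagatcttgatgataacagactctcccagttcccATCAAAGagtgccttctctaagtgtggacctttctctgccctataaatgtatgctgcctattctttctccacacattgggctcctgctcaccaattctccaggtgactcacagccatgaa
The last pair holds GAAANNGAAA on the other strand, 163 bases before the start site of Gm1966, low only in p53(flox/flox). In Gm14446 (Ifit1bl1), high only in p53(M/M), it lay 23 bases before a start site, and the window of another start site held it too.
Gm1966, chr7:106644596-106644895, minus strand: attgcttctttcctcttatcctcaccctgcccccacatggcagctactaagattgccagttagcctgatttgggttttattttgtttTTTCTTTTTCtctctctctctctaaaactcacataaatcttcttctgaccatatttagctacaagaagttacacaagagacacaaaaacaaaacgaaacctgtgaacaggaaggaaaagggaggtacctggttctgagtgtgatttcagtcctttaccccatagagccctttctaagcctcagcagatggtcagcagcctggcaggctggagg
Gm14446, chr19:34599378-34599677, minus strand: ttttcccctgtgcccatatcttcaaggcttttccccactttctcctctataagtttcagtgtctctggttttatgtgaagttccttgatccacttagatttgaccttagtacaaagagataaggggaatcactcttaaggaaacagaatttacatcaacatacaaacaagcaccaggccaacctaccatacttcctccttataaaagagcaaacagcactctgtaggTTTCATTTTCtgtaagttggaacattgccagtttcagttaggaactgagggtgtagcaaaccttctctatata

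The definition was met by 16.6% of the Rik and Gm rows that passed the filter, by 8.63% of the 9501 rows with other symbols and by 9.06% of all 10042. Rik and Gm rows met it more often at each level: 17.6% against 12.7% where the highest library was between 4 and 8 rpkm, 13.4% against 9.76% between 8 and 16, and 18.7% against 6.72% from 16 rpkm upward. The ratio of highest to lowest genotype mean ran from 3.003 to 81.0 with a median of 4.40. Each member was put in 1 of 6 patterns by letting the middle genotype join whichever neighbour was nearer on the log scale. There were 21 members high only in p53(M/M), 20 low only in p53(flox/flox), 19 low only in p53(M/M), 15 high only in p53(+/+), 8 high only in p53(flox/flox) and 7 low only in p53(+/+). Rows with other symbols that met the definition were high only in p53(M/M) in 26.5% of cases against 23.3% of the members, and high only in p53(+/+) in 21.2% against 16.7%. They were low only in p53(M/M) in 17.4% against 21.1%, and low only in p53(flox/flox) in 16.8% against 22.2%. The patterns high only in p53(flox/flox) and low only in p53(+/+) took 12.2% and 5.85% of them, against 8.89% and 7.78%.

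**Figure D1:**
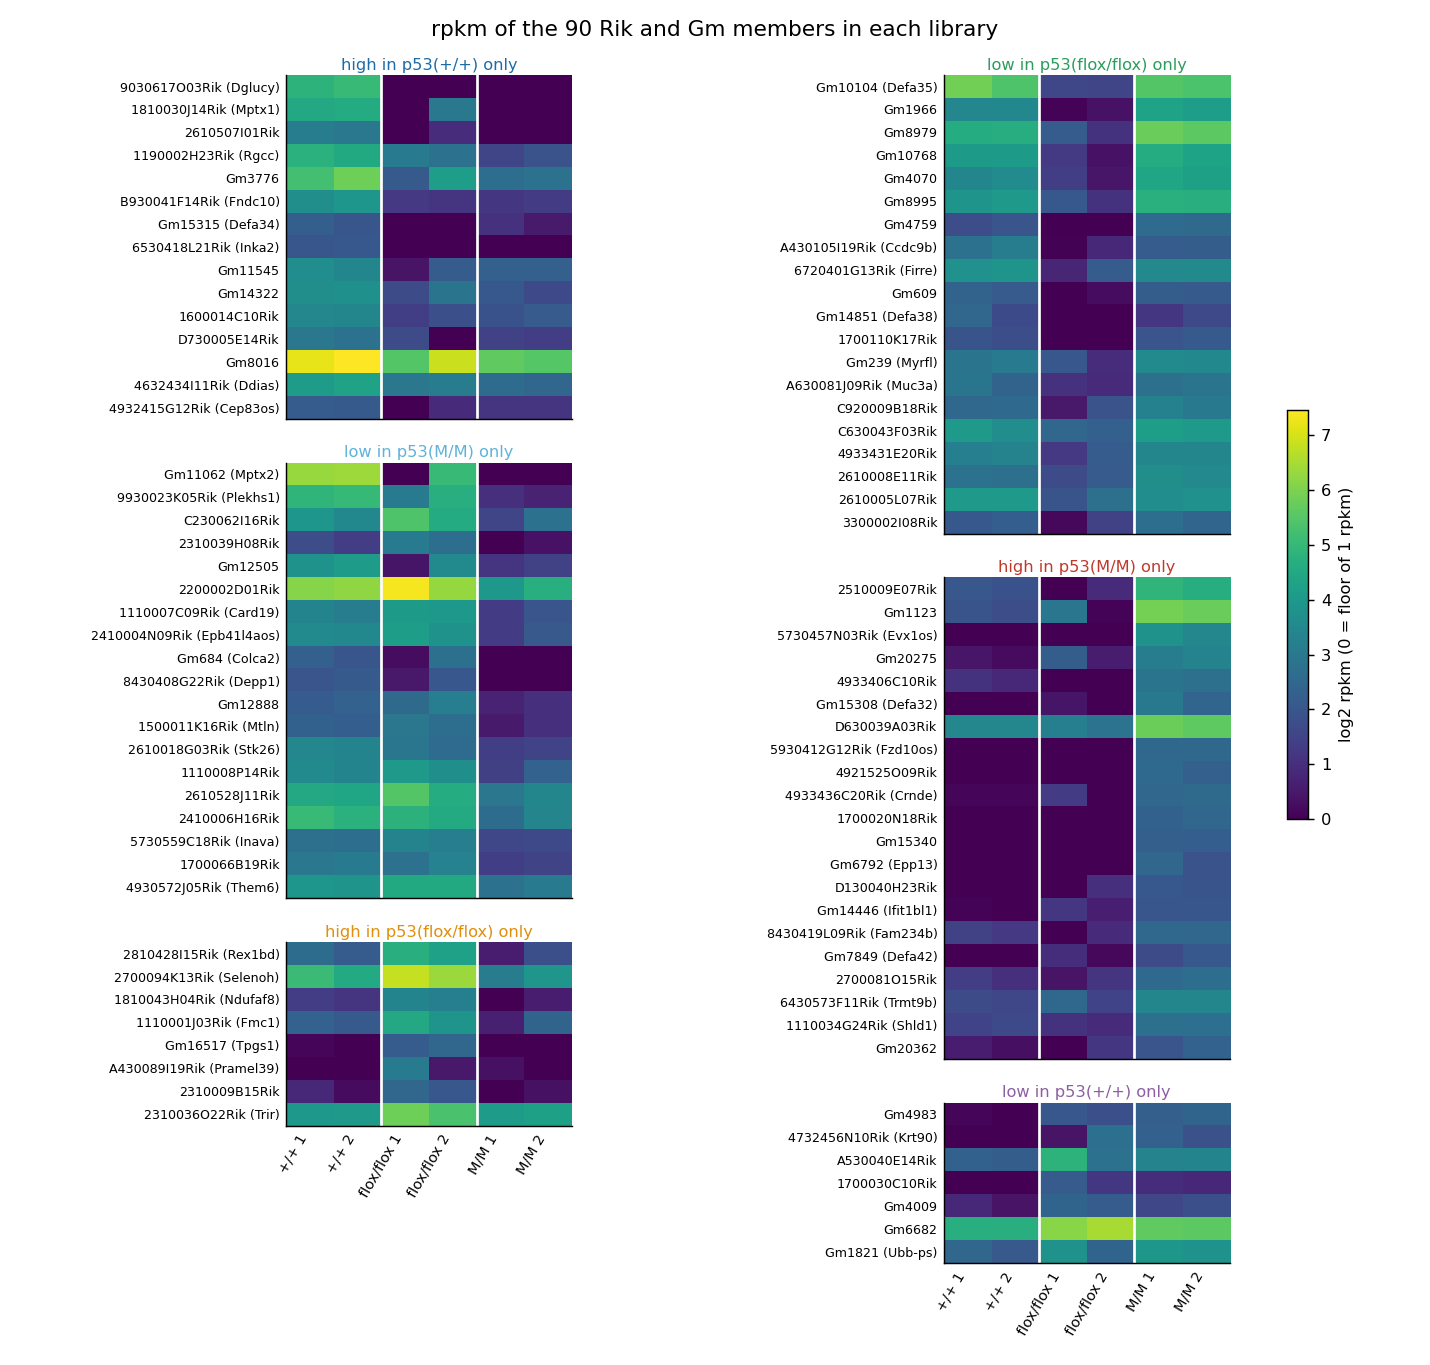
Heat map of log2 rpkm (color scale, 0 is the floor of 1 rpkm) for the 90 members (rows, newer symbol in parentheses) in the 6 libraries (columns), in 6 panels by pattern and by falling ratio within each. Dark cells at the floor fill both p53(+/+) and p53(flox/flox) for several members high only in p53(M/M), and the pair of p53(flox/flox) columns differ from each other more often than the other pairs.

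**Figure D2:**
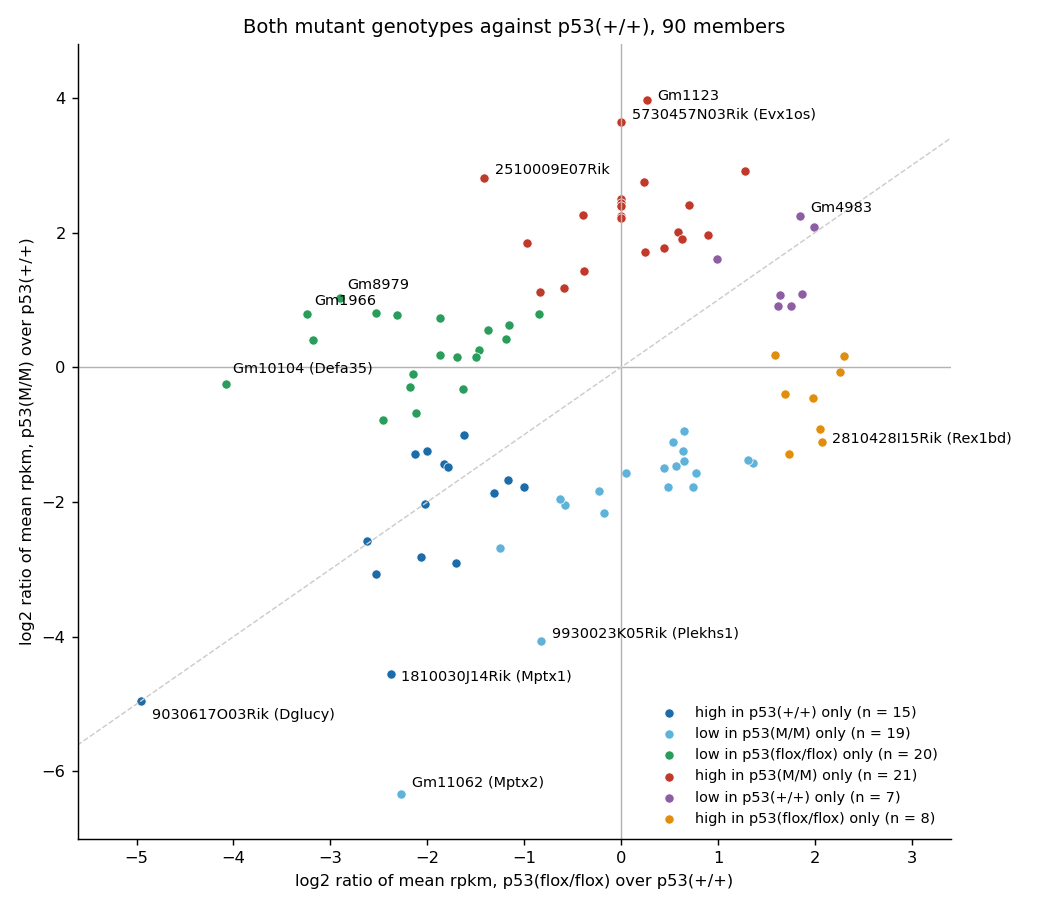
Each point is a member, placed by the log2 ratio of its mean rpkm in p53(flox/flox) over p53(+/+) (x axis) and in p53(M/M) over p53(+/+) (y axis), colored by pattern, with a dashed line where both ratios are equal. Members lie in every direction from the origin, with Gm11062 lowest in p53(M/M) and 9030617O03Rik low by equal amounts in both mutant genotypes; points of members at the floor are bounds.

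The 15 members high only in p53(+/+) included a metabolic enzyme, a pentraxin and a regulator of the cell cycle. 9030617O03Rik (Dglucy), a mitochondrial enzyme that removes D-glutamate, stood at 28.3 and 33.7 rpkm in p53(+/+), 1 and 1 in p53(flox/flox) and 1 and 1 in p53(M/M). All 4 mutant libraries were at the floor, so the difference was at least 30.98-fold. 1810030J14Rik (Mptx1), a mucosal pentraxin of the gut, had 22.7 and 24.2 rpkm in p53(+/+), 1 and 8.02 in p53(flox/flox) and 1 and 1 in p53(M/M), at least 23.4-fold above p53(M/M). The second p53(flox/flox) library alone kept part of its level. 2610507I01Rik, a long non-coding RNA, had 8.80 and 8.03 rpkm in p53(+/+), 1 and 1.92 in p53(flox/flox) and 1 and 1 in p53(M/M). 1190002H23Rik (Rgcc), a regulator of the cell cycle, had 27.5 and 23.003 rpkm in p53(+/+), 8.57 and 6.95 in p53(flox/flox) and 2.97 and 3.78 in p53(M/M), a 7.48-fold span. Neither mutant genotype overlapped p53(+/+), which the definition required for p53(M/M) only. The share of all rows separated in this way was not counted.

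Gm3776, which lies beside the glutathione transferase gene Gsta1 and shared 83.0% of its 50-base windows with it, had 37.6 and 56.3 rpkm in p53(+/+), 4.34 and 18.2 in p53(flox/flox) and 6.44 and 6.87 in p53(M/M). Reads of such near-identical copies can be divided between them, so its own level is uncertain. B930041F14Rik (Fndc10), a membrane protein with a fibronectin type III domain, had 12.9 and 15.2 rpkm in p53(+/+), 2.38 and 2.21 in p53(flox/flox) and 2.29 and 2.44 in p53(M/M). 6530418L21Rik (Inka2), an inhibitor of the kinase Pak4, had 3.96 and 4.17 rpkm in p53(+/+), 1 and 1 in p53(flox/flox) and 1 and 1 in p53(M/M), at least 4.06-fold. Both genes were low in all 4 mutant libraries. Gm15315 (Defa34), an alpha-defensin, had 4.75 and 3.97 rpkm in p53(+/+), 1 and 1 in p53(flox/flox) and 2.10 and 1.46 in p53(M/M). Gm11545 had 12.6 and 10.8 rpkm in p53(+/+), 1.32 and 4.53 in p53(flox/flox) and 4.94 and 4.91 in p53(M/M), Gm14322 had 12.9 and 13.5 rpkm in p53(+/+), 3.33 and 7.30 in p53(flox/flox) and 4.15 and 3.12 in p53(M/M), and 1600014C10Rik had 10.99 and 10.8 rpkm in p53(+/+), 2.64 and 3.51 in p53(flox/flox) and 3.68 and 4.39 in p53(M/M). D730005E14Rik, a long non-coding RNA, had 7.84 and 6.84 rpkm in p53(+/+), 3.27 and 1 in p53(flox/flox) and 2.70 and 2.58 in p53(M/M). In these 4 the mutant genotypes stayed above the floor in most libraries. Gm8016, a long non-coding RNA and among the highest members, had 147 and 177 rpkm in p53(+/+), 44.7 and 117 in p53(flox/flox) and 49.8 and 45.1 in p53(M/M), and the second p53(flox/flox) library lay nearer to p53(+/+) than to the first. 4632434I11Rik (Ddias), which protects cells from apoptosis after DNA damage, had 17.4 and 19.8 rpkm in p53(+/+), 7.80 and 8.74 in p53(flox/flox) and 6.20 and 5.52 in p53(M/M), a 3.17-fold span. 4932415G12Rik (Cep83os) had 4.49 and 4.30 rpkm in p53(+/+), 1 and 1.85 in p53(flox/flox) and 2.16 and 2.20 in p53(M/M).

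Among the 19 members low only in p53(M/M), the largest difference of all belonged to a second pentraxin. Gm11062 (Mptx2) had 79.1 and 82.9 rpkm in p53(+/+), 1 and 32.7 in p53(flox/flox) and 1 and 1 in p53(M/M), at least 81.01-fold between p53(+/+) and p53(M/M). The first p53(flox/flox) library stood with p53(M/M) at the floor and the second did not, and without the second Gm11062 left this pattern. 9930023K05Rik (Plekhs1), which has a lipid-binding pleckstrin homology domain, had 29.5 and 31.96 rpkm in p53(+/+), 8.70 and 25.9 in p53(flox/flox) and 1.99 and 1.68 in p53(M/M), a 16.7-fold span. Gm12505, a long non-coding RNA beside the DNA repair gene Rad23b, had 14.4 and 17.4 rpkm in p53(+/+), 1.35 and 12.02 in p53(flox/flox) and 2.22 and 2.72 in p53(M/M). Its first p53(flox/flox) library lay below both p53(M/M) libraries. Without the second p53(flox/flox) library 12 of the 19 stayed in this pattern, and without the first 16 did. Besides Gm11062, those that left without the second were C230062I16Rik, 2310039H08Rik, Gm12505, Gm684, 8430408G22Rik and 1700066B19Rik.

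Most of the other members of that pattern were highest in p53(flox/flox). C230062I16Rik, a long non-coding RNA, had 15.1 and 11.1 rpkm in p53(+/+), 42.96 and 24.4 in p53(flox/flox) and 2.93 and 6.87 in p53(M/M), and 2310039H08Rik had 3.41 and 2.54 rpkm in p53(+/+), 8.26 and 6.45 in p53(flox/flox) and 1 and 1.28 in p53(M/M). 2200002D01Rik, the short protein also known as H2RSP or IMUP, was abundant at 69.2 and 74.4 rpkm in p53(+/+), 164 and 77.4 in p53(flox/flox) and 15.96 and 26.2 in p53(M/M). In each of these 3 the genotypes stood in the order p53(flox/flox), p53(+/+), p53(M/M), and the p53(flox/flox) libraries of C230062I16Rik and 2200002D01Rik stood apart. 1110007C09Rik (Card19), a protein with a caspase recruitment domain, had 10.3 and 8.80 rpkm in p53(+/+), 16.7 and 15.8 in p53(flox/flox) and 2.53 and 3.91 in p53(M/M). 1500011K16Rik (Mtln), a micropeptide of the mitochondrial inner membrane, had 5.01 and 4.65 rpkm in p53(+/+), 7.82 and 6.51 in p53(flox/flox) and 1.45 and 2.06 in p53(M/M). Gm12888 had 4.52 and 5.11 rpkm in p53(+/+), 6.02 and 9.12 in p53(flox/flox) and 1.64 and 2.05 in p53(M/M). These 3 repeated that order. Gm684 (Colca2) had 4.94 and 4.03 rpkm in p53(+/+), 1.19 and 6.75 in p53(flox/flox) and 1 and 1 in p53(M/M) and 8430408G22Rik (Depp1), a regulator of autophagy induced by FOXO factors, had 3.90 and 4.35 rpkm in p53(+/+), 1.43 and 4.12 in p53(flox/flox) and 1 and 1 in p53(M/M), both with their p53(M/M) libraries at the floor. 2410004N09Rik (Epb41l4aos) had 11.8 and 11.2 rpkm in p53(+/+), 17.8 and 14.4 in p53(flox/flox) and 2.45 and 4.22 in p53(M/M).

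Another 7 completed that pattern with ratios between 3.003 and 3.87: 2610018G03Rik (Stk26), a kinase of the MST family, 1110008P14Rik, 2610528J11Rik, 2410006H16Rik, 5730559C18Rik (Inava), an activator of innate immune signaling, 1700066B19Rik and 4930572J05Rik (Them6). Of these, 4930572J05Rik lay just inside the 3-fold limit. Its values were 15.1 and 14.6 rpkm in p53(+/+), 23.4 and 23.1 in p53(flox/flox) and 7.03 and 8.44 in p53(M/M). 1110008P14Rik had 11.7 and 10.3 rpkm in p53(+/+), 16.6 and 13.3 in p53(flox/flox) and 2.68 and 5.13 in p53(M/M), and 1700066B19Rik had 7.75 and 8.57 rpkm in p53(+/+), 6.88 and 9.99 in p53(flox/flox) and 2.61 and 2.91 in p53(M/M). In 2410006H16Rik, a long non-coding RNA of short length, the values were 32.8 and 27.1 rpkm in p53(+/+), 27.6 and 23.5 in p53(flox/flox) and 6.19 and 10.5 in p53(M/M). Stk26 was the only 1 of the 7 with both p53(flox/flox) libraries below both p53(+/+) libraries, at 7.69 and 6.07 against 11.1 and 10.3 rpkm. How many of all rows showed this was not counted.

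The 20 members low only in p53(flox/flox) were led by an alpha-defensin and by rows of the very large inducible GTPase cluster around Gvin1. Gm10104 (Defa35) had 58.2 and 42.2 rpkm in p53(+/+), 3.01 and 2.95 in p53(flox/flox) and 44.2 and 40.5 in p53(M/M), a 16.9-fold span. Gm1966, Gm8979, Gm4070, Gm8995 and Gm4759 lie in 1 stretch of chromosome 7, from 105895118 to 106644646 on GRCm38, and Gm4070 carries the synonym VLIG-1. Very large inducible GTPases are induced by interferon in host defense. RefSeq lists Gm1966 and Gm4070 as coding, Gm8979 and Gm4759 as transcribed pseudogenes and Gm8995 as an RNA of another kind. Gm1966 had 10.9 and 11.2 rpkm in p53(+/+), 1.06 and 1.28 in p53(flox/flox) and 20.01 and 18.3 in p53(M/M), Gm8979 had 24.7 and 24.997 rpkm in p53(+/+), 4.50 and 2.15 in p53(flox/flox) and 53.8 and 47.9 in p53(M/M), and Gm4070 had 10.7 and 12.3 rpkm in p53(+/+), 2.59 and 1.38 in p53(flox/flox) and 20.9 and 19.05 in p53(M/M). Gm8995 and Gm4759 followed at 14.5 and 16.5 rpkm in p53(+/+), 4.14 and 2.13 in p53(flox/flox) and 26.7 and 26.3 in p53(M/M), and at 3.37 and 3.94 rpkm in p53(+/+), 1 and 1 in p53(flox/flox) and 6.09 and 6.04 in p53(M/M). All 5 stood in the order p53(M/M), p53(+/+), p53(flox/flox). The definition itself set p53(M/M) apart from p53(flox/flox), and the share of all rows without any overlap was not counted. In these 5 p53(+/+) overlapped neither. Their summed level was 64.2 and 68.9 rpkm in p53(+/+), 13.3 and 7.93 in p53(flox/flox), and 128 and 118 in p53(M/M).

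The GTPase rows are not independent measurements. Of the 50-base windows of its longest transcript, Gm4070 shared 98.9% with another gene, most with Gvin1, and Gm8979 shared 85.8%. For Gm8995, Gm1966 and Gm4759 the shares were 19.0%, 17.5% and 2.51%, so most of their sequence was their own. The 7 or 8 other rows within 1 Mb of them had median log2 differences of 0.35 to 0.40 for p53(flox/flox) against p53(+/+) and 0.04 to 0.11 for p53(M/M).

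**Figure D3:**
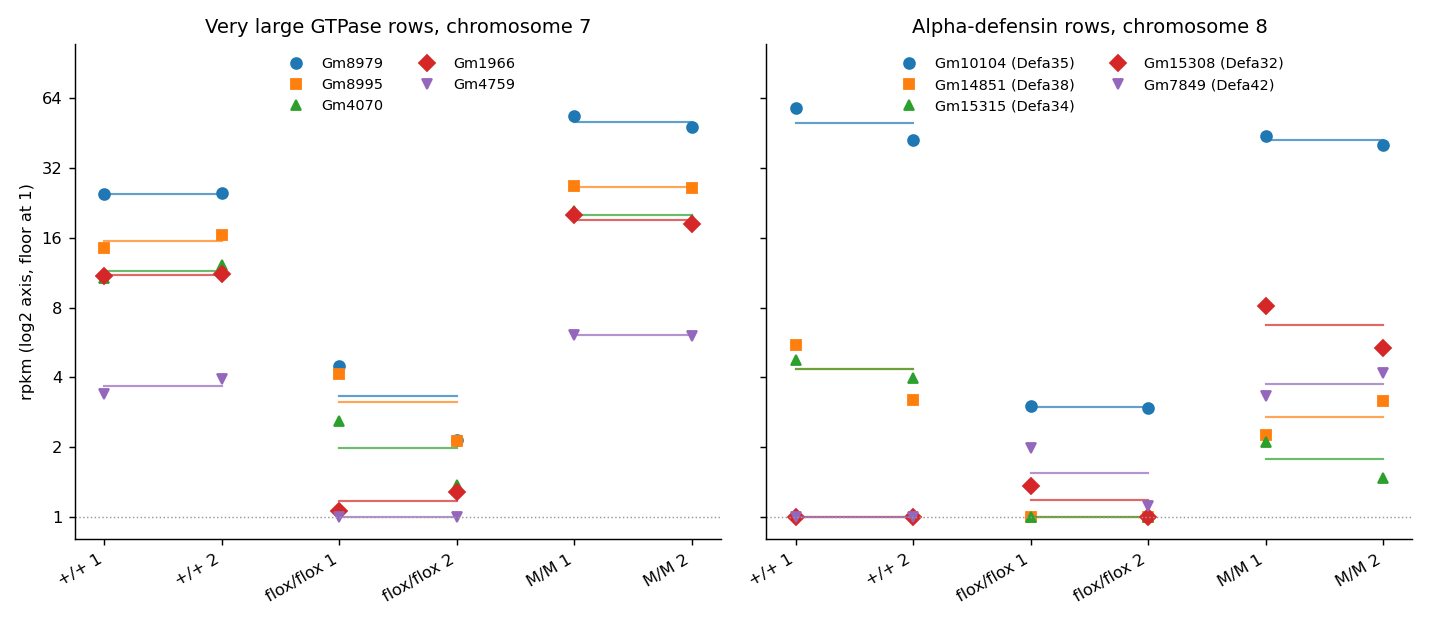
rpkm (log2 axis, dotted line at the floor of 1) of the very large GTPase rows (left) and the alpha-defensin rows (right) in each library (points), with a line at the mean of each genotype (n = 2). The GTPase rows keep 1 order of genotypes, at 7.93 to 13.3 rpkm summed in p53(flox/flox) and 118 to 128 in p53(M/M), while the defensin rows differ in order.

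The 5 alpha-defensin members fell into 3 patterns. Besides Gm10104, Gm14851 (Defa38) had 5.50 and 3.20 rpkm in p53(+/+), 1 and 1 in p53(flox/flox) and 2.26 and 3.15 in p53(M/M), Gm15308 (Defa32) had 1 and 1 rpkm in p53(+/+), 1.35 and 1 in p53(flox/flox) and 8.15 and 5.36 in p53(M/M), and Gm7849 (Defa42) had 1 and 1 rpkm in p53(+/+), 1.98 and 1.12 in p53(flox/flox) and 3.32 and 4.19 in p53(M/M). So Defa32 and Defa42 were at the floor in p53(+/+) and present in p53(M/M), whereas Defa34 was highest in p53(+/+). Beside them the defensin among the Paneth markers, Defa24, stood at 410 and 323 rpkm in p53(+/+), 41.9 and 53.5 in p53(flox/flox) and 68.7 and 91.5 in p53(M/M), and the Paneth protease Mmp7 at 624 and 485, 351 and 397, and 138 and 143. Defensin genes are short copies of each other: Gm15308 and Gm7849 shared 100% of their windows with other genes, Gm15315 84.0%, Gm10104 59.9% and Gm14851 55.6%, and how reads were divided between copies is not given in the sources used here.

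The other members low only in p53(flox/flox) included a mucin and several non-coding RNAs. Gm10768, a long non-coding RNA, had 16.7 and 16.9 rpkm in p53(+/+), 2.43 and 1.28 in p53(flox/flox) and 24.5 and 20.01 in p53(M/M), a 12-fold span. 6720401G13Rik (Firre), an X-linked nuclear RNA that takes part in chromosome organization, had 13.7 and 14.6 rpkm in p53(+/+), 1.76 and 4.48 in p53(flox/flox) and 11.4 and 11.6 in p53(M/M). A630081J09Rik (Muc3a), a membrane mucin row, had 7.53 and 5.21 rpkm in p53(+/+), 2.08 and 1.86 in p53(flox/flox) and 6.78 and 7.34 in p53(M/M). A430105I19Rik (Ccdc9b) had 6.94 and 8.81 rpkm in p53(+/+), 1.03 and 1.83 in p53(flox/flox) and 4.54 and 4.60 in p53(M/M), Gm609 had 5.23 and 4.45 rpkm in p53(+/+), 1 and 1.18 in p53(flox/flox) and 4.64 and 4.36 in p53(M/M), and 1700110K17Rik had 3.87 and 3.45 rpkm in p53(+/+), 1 and 1 in p53(flox/flox) and 3.95 and 4.33 in p53(M/M). In these 6 both p53(flox/flox) libraries lay below all 4 others, which the definition required against the highest genotype only. The share of all rows for which this held was not counted. Gm239 (Myrfl) had 7.36 and 8.29 rpkm in p53(+/+), 4.08 and 1.94 in p53(flox/flox) and 11.9 and 11.1 in p53(M/M). The remaining 6, C920009B18Rik, C630043F03Rik, 4933431E20Rik, 2610008E11Rik, 2610005L07Rik and 3300002I08Rik, had ratios from 3.07 to 3.45, and 2610005L07Rik was the only 1 of them highest in p53(+/+). C630043F03Rik, beside the Wnt co-repressor gene Tle1, was the most abundant of these at 16.1 and 12.8 rpkm in p53(+/+), 5.51 and 4.91 in p53(flox/flox) and 18.1 and 16.4 in p53(M/M). 4933431E20Rik had 9.26 and 10.1 rpkm in p53(+/+), 2.37 and 4.51 in p53(flox/flox) and 10.8 and 10.7 in p53(M/M).

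The 21 members high only in p53(M/M) formed the largest pattern, and 8 of them were long non-coding RNAs. 2510009E07Rik had 4.07 and 3.67 rpkm in p53(+/+), 1 and 1.91 in p53(flox/flox) and 29.5 and 24.99 in p53(M/M), 18.7-fold above p53(flox/flox). Gm1123, also known as CLSP, had 3.84 and 3.40 rpkm in p53(+/+), 7.65 and 1.04 in p53(flox/flox) and 59.8 and 53.9 in p53(M/M), a 15.7-fold span. D630039A03Rik had 10.9 and 10.9 rpkm in p53(+/+), 9.38 and 7.25 in p53(flox/flox) and 55.03 and 49.3 in p53(M/M). These 3 protein-coding rows were present in p53(+/+) as well and reached the highest levels of the pattern. 5730457N03Rik (Evx1os), transcribed across from the homeobox gene Evx1, had 1 and 1 rpkm in p53(+/+), 1 and 1 in p53(flox/flox) and 14.01 and 10.95 in p53(M/M), at least 12.5-fold. 5930412G12Rik (Fzd10os), beside the Wnt receptor gene Fzd10, had 1 and 1 rpkm in p53(+/+), 1 and 1 in p53(flox/flox) and 5.67 and 5.62 in p53(M/M). 4921525O09Rik had 1 and 1 rpkm in p53(+/+), 1 and 1 in p53(flox/flox) and 5.90 and 4.92 in p53(M/M), and 1700020N18Rik had 1 and 1 rpkm in p53(+/+), 1 and 1 in p53(flox/flox) and 5.0 and 5.56 in p53(M/M). All 4 are non-coding and stood at the floor in p53(+/+) and p53(flox/flox) alike, as did Gm15340 and Gm6792 (Epp13) at 4.84 and 4.65 and 5.54 and 3.80 rpkm in p53(M/M).

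4933436C20Rik (Crnde), a non-coding RNA first described as raised in colorectal neoplasia, had 1.08 and 1.08 rpkm in p53(+/+), 2.52 and 1 in p53(flox/flox) and 5.56 and 5.95 in p53(M/M). Gm20275 and 4933406C10Rik, also non-coding, had 1.37 and 1.16 rpkm in p53(+/+), 4.62 and 1.51 in p53(flox/flox) and 9.05 and 10.1 in p53(M/M), and 2.13 and 1.77 rpkm in p53(+/+), 1 and 1 in p53(flox/flox) and 7.26 and 6.79 in p53(M/M). In all 3 both p53(M/M) libraries lay above the 4 others, which the definition required against the lowest genotype only. The share of all rows for which that held was not counted either. Gm14446 (Ifit1bl1), of the interferon-induced IFIT family, had 1.05 and 1 rpkm in p53(+/+), 2.25 and 1.55 in p53(flox/flox) and 4.01 and 4.02 in p53(M/M), and its highest library was the lowest of all members. 1110034G24Rik (Shld1), a subunit of the shieldin complex that protects broken DNA ends, had 2.84 and 3.14 rpkm in p53(+/+), 2.14 and 1.84 in p53(flox/flox) and 6.81 and 6.69 in p53(M/M). Another 6 members completed the pattern with ratios from 3.29 to 4.01: D130040H23Rik, 8430419L09Rik (Fam234b), 2700081O15Rik, 6430573F11Rik (Trmt9b), a tRNA methyltransferase homolog, Gm20362 and the defensin Gm7849. Of these 2700081O15Rik had 2.57 and 2.04 rpkm in p53(+/+), 1.32 and 2.21 in p53(flox/flox) and 5.89 and 6.53 in p53(M/M), and Trmt9b reached 10.8 and 10.9 in p53(M/M).

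Of the 8 members high only in p53(flox/flox), all were protein coding. 2700094K13Rik (Selenoh), a nuclear selenoprotein, had 33.9 and 23.7 rpkm in p53(+/+), 111 and 80.6 in p53(flox/flox) and 8.84 and 14.8 in p53(M/M), an 8.10-fold span from p53(M/M). 2810428I15Rik (Rex1bd) had 6.28 and 4.51 rpkm in p53(+/+), 26.1 and 19.2 in p53(flox/flox) and 1.48 and 3.52 in p53(M/M). 1810043H04Rik (Ndufaf8), an assembly factor of respiratory complex I, had 2.54 and 2.20 rpkm in p53(+/+), 10.3 and 9.40 in p53(flox/flox) and 1.01 and 1.52 in p53(M/M). 1110001J03Rik (Fmc1), an assembly factor of ATP synthase, had 5.11 and 4.35 rpkm in p53(+/+), 22.8 and 14.6 in p53(flox/flox) and 1.59 and 5.29 in p53(M/M). In these 4 the order was p53(flox/flox), p53(+/+), p53(M/M) by means, with Fmc1 values of p53(+/+) and p53(M/M) overlapping. 2310036O22Rik (Trir), an exoribonuclease, had 15.7 and 16.2 rpkm in p53(+/+), 56.1 and 40.01 in p53(flox/flox) and 17.5 and 18.8 in p53(M/M). Gm16517 (Tpgs1), a subunit of tubulin polyglutamylase, had 1.10 and 1 rpkm in p53(+/+), 4.55 and 5.54 in p53(flox/flox) and 1 and 1 in p53(M/M), and 2310009B15Rik had 1.80 and 1.17 rpkm in p53(+/+), 5.53 and 4.07 in p53(flox/flox) and 1 and 1.26 in p53(M/M). A430089I19Rik (Pramel39) had 1 and 1 rpkm in p53(+/+), 8.47 and 1.41 in p53(flox/flox) and 1.26 and 1 in p53(M/M), with the second p53(flox/flox) library near the floor, and 97.1% of its windows occur in other genes.

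The smallest pattern, low only in p53(+/+), held 7 members, of which RefSeq lists 1 as protein coding. Gm6682, a pseudogene, was the most abundant at 26.1 and 26.3 rpkm in p53(+/+), 71.04 and 90.01 in p53(flox/flox) and 50.3 and 48.1 in p53(M/M). A530040E14Rik had 5.01 and 4.62 rpkm in p53(+/+), 28.1 and 7.07 in p53(flox/flox) and 10.1 and 10.3 in p53(M/M), and Gm1821 (Ubb-ps), a ubiquitin pseudogene, had 5.57 and 4.25 rpkm in p53(+/+), 14.2 and 5.26 in p53(flox/flox) and 15.6 and 14.2 in p53(M/M). The first p53(flox/flox) library was the higher of the pair in both. Gm4983 had 1.10 and 1.01 rpkm in p53(+/+), 4.05 and 3.53 in p53(flox/flox) and 4.76 and 5.29 in p53(M/M), 4732456N10Rik (Krt90), a keratin, had 1 and 1 rpkm in p53(+/+), 1.31 and 6.64 in p53(flox/flox) and 4.85 and 3.60 in p53(M/M), 1700030C10Rik had 1 and 1 rpkm in p53(+/+), 4.44 and 2.31 in p53(flox/flox) and 1.96 and 1.79 in p53(M/M), and Gm4009 had 1.82 and 1.32 rpkm in p53(+/+), 5.26 and 4.50 in p53(flox/flox) and 3.01 and 3.57 in p53(M/M). Of the windows of Gm1821 89.2% occur in other genes and 83.2% in Ubb itself, and of those of Gm6682 63.1%, so reads of the parent genes could be counted there.

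Transcript length and base composition moved with some of these patterns. By the longest GENCODE M21 transcript, available for 87 members, the median was 1735 nt, against 2704 nt for other Rik and Gm rows and 3366 nt for rows with other symbols. It was 870 nt for members high only in p53(flox/flox), 1269 nt for those low only in p53(M/M) and 4229 nt for those low only in p53(flox/flox). Transcripts under 1000 nt made up 31.03% of the members, 11.7% of other Rik and Gm rows and 4.15% of the rest. Among non-member rows the same direction was seen. The 445 under 1000 nt had a median log2 difference of 0.36 in p53(flox/flox) and -0.21 in p53(M/M) against p53(+/+), while the 3686 from 4000 nt upward had -0.20 and 0.12. The shift of short rows came mostly from the first p53(flox/flox) library, at 0.61, with 0.08 in the second. Rows with at least 55% GC differed by 0.15 and -0.11.

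With the trend of each library on length and GC content removed, an alternative chosen after seeing the data, 84 Rik and Gm rows met the definition, 74 of the 90 members among them, and 69 stayed in their pattern. By pattern 20 of 21 stayed among those high only in p53(M/M), 16 of 20 low only in p53(flox/flox), 12 of 15 high only in p53(+/+), 6 of 8 high only in p53(flox/flox), 4 of 7 low only in p53(+/+) and 11 of 19 low only in p53(M/M). The 8 that left the last group were Gm12505, Card19, Epb41l4aos, Mtln, 2610528J11Rik, Inava, 1700066B19Rik and Them6. Beyond this count, the part of length and composition in the members' values was not tested.

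**Figure D4:**
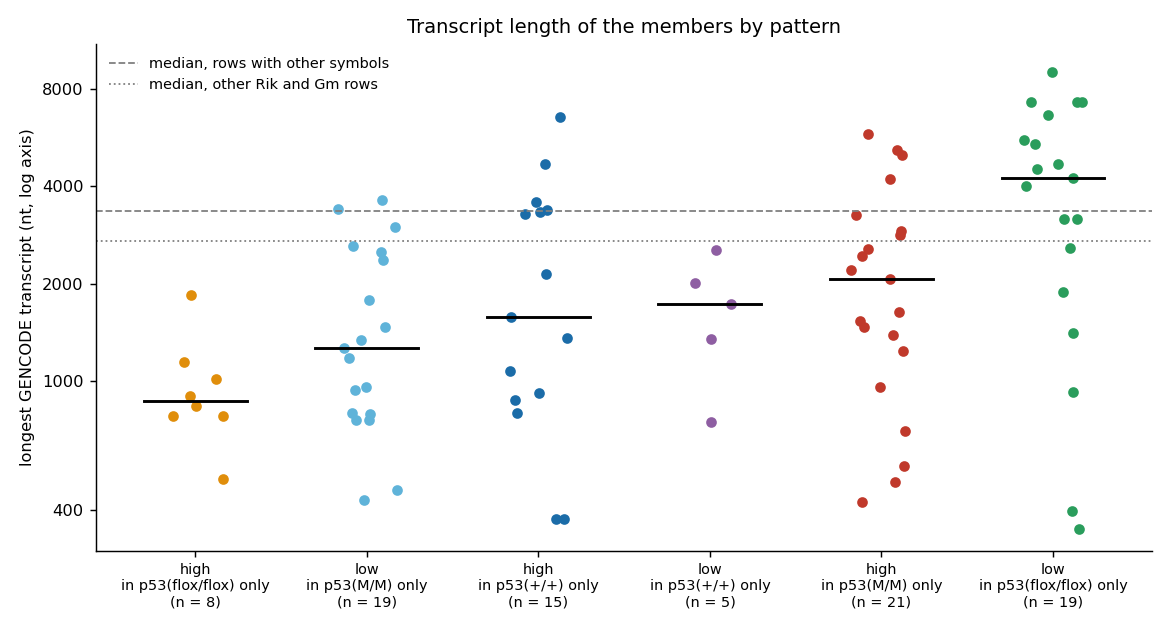
Longest GENCODE transcript (nt, log axis) of the 87 members with a length, by pattern (points, black bar at the median), with the medians of rows with other symbols (dashed, 3366 nt) and of other Rik and Gm rows (dotted, 2704 nt). Members high only in p53(flox/flox) center on 870 nt and members low only in p53(flox/flox) on 4229 nt.

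The nearest named genes were not used to choose the members and were tested. For 63 of 88 members placed on GRCm38, a gene with another kind of symbol that passed the filter lay within 100 kb, and the nearest was compared in the contrast of the member's highest against its lowest genotype. Gm15284, left out of the members by definition, was kept as a possible neighbour and is counted among the 63. Of these 63 neighbours 19 (30.2%) were called by limma in the member's direction, 3 in the opposite direction and 41 not. The share of all rows called per contrast and direction was 4.38% to 13.6%. Within each contrast, 4 of 11 neighbours were higher in p53(M/M) than p53(+/+) with their member (5.86% of all rows were), 5 of 13 were higher in p53(M/M) than p53(flox/flox) (13.6%), and 5 of 15 higher in p53(flox/flox) than p53(M/M) (11%). Further, 3 of 12 were higher in p53(+/+) than p53(flox/flox) (6.9%), 2 of 9 higher in p53(+/+) than p53(M/M) (6.36%), and 0 of 3 higher in p53(flox/flox) than p53(+/+) (4.38%), where limma also gave 0 at an unadjusted p under 0.05. The total was 22 with the length and GC trend removed, where 4 of the 19 calls were lost and 7 neighbours not called otherwise were called (Ccdc88c, Ssu72, Xylt2, Phgr1, Tle1, Pik3cb and Hes6). The total depended on the libraries. It fell without either p53(+/+) library or either p53(M/M) library and rose without either p53(flox/flox) library. Calls over all rows against p53(+/+) fell and rose in the same fits, so these shifts are not particular to the neighbours. In such fits the lone library was taken to vary like the others. The calls of 2 neighbours, Abcc2 and Sypl, were kept without each library in turn. Each of the other 17 was lost without the first p53(+/+) library, and all but Defa23 and Gm15284 of them also without the second.

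Gene bodies overlapped on opposite strands for 8 pairs, of which 5 neighbours were called with their member and 1 against it. The kit keeps strand, but whether the counting used it is not given in the sources used here, so reads of overlapping genes cannot be told apart. Without overlap, 9 of 30 neighbours within 10 kb and 5 of 25 from 10 to 100 kb were called in the member's direction. Evx1, overlapped by Evx1os, had 1 and 1 rpkm in p53(+/+), 1 and 1 in p53(flox/flox) and 6.10 and 5.53 in p53(M/M) (log2 fold change 1.77 ± 0.14 (SE), adjusted p = 0.00441). Ifit1 had 1.22 and 1.12 rpkm in p53(+/+), 1 and 1.40 in p53(flox/flox) and 3.76 and 4.49 in p53(M/M) beside Gm14446 (log2 fold change 1.24 ± 0.17 (SE), adjusted p = 0.0171). Gstm5, a glutathione transferase, had 53.5 and 55.2 rpkm in p53(+/+), 16.6 and 30.6 in p53(flox/flox) and 76.2 and 73.9 in p53(M/M) beside 4933431E20Rik (log2 fold change 1.69 ± 0.28 (SE), adjusted p = 0.0172). All 3 followed their member. Yif1b beside 2200002D01Rik (log2 fold change 0.75 ± 0.14 (SE), adjusted p = 0.0216) and Gramd1b beside 1700110K17Rik (log2 fold change 1.11 ± 0.23 (SE), adjusted p = 0.0282) were the other two, and with the trend on length and GC content removed Yif1b turned to a log2 fold change of -0.14. Rassf4, across from Depp1, went the other way, with 1.78 and 1.72 rpkm in p53(+/+), 3.66 and 3.40 in p53(flox/flox) and 6.10 and 7.06 in p53(M/M) (log2 fold change -1.46 ± 0.14 (SE), adjusted p = 0.00587).

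Of 8 neighbours that start head to head within 1000 nt of a member, 4 were called with it. Sypl, 66 nt from the start of 4933406C10Rik, had 167 and 165 rpkm in p53(+/+), 61.8 and 77.9 in p53(flox/flox) and 349 and 324 in p53(M/M) (log2 fold change 2.26 ± 0.14 (SE), adjusted p = 0.00225). Fzd10, 419 nt from Fzd10os, had 2.88 and 2.66 rpkm in p53(+/+), 2.82 and 1.16 in p53(flox/flox) and 18.9 and 18.3 in p53(M/M) (log2 fold change 2.38 ± 0.28 (SE), adjusted p = 0.011). Fzd10 and Fzd10os were both highest in p53(M/M). Prcp, a lysosomal carboxypeptidase 336 nt from Ddias, had 13.5 and 12.3 rpkm in p53(+/+), 6.42 and 8.04 in p53(flox/flox) and 5.54 and 6.13 in p53(M/M) (log2 fold change 1.03 ± 0.14 (SE), adjusted p = 0.0166), and Gstm5 was the fourth. In the other 4 pairs the neighbour was not called, as for Mrpl55, 55 nt from 2610507I01Rik (log2 fold change 0.62 ± 0.15 (SE), adjusted p = 0.0574), Ccdc41 (Cep83), 11 nt from Cep83os (log2 fold change -0.16 ± 0.15 (SE), adjusted p = 0.49), Tle1, 255 nt from C630043F03Rik (log2 fold change 0.41 ± 0.12 (SE), adjusted p = 0.0593), and Enthd2 (Tepsin), 54 nt from Ndufaf8 (log2 fold change -0.11 ± 0.17 (SE), adjusted p = 0.629).

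Neighbours on the same strand or farther off included a transporter, defensins and a cell death gene. Abcc2, the transporter that exports bile salts and conjugates, ends 471 nt before Gm10768 on the same strand and had 32.7 and 35.3 rpkm in p53(+/+), 2.89 and 1.51 in p53(flox/flox) and 37.1 and 31.5 in p53(M/M) (log2 fold change 3.49 ± 0.23 (SE), adjusted p = 0.00245). A transcript that runs on past the end of Abcc2 cannot be told apart from Gm10768. The defensins Defa23 beside Gm10104 (log2 fold change 3.99 ± 0.20 (SE), adjusted p = 0.0028), Gm15284 (Defa30) beside Gm14851 (log2 fold change 3.58 ± 0.16 (SE), adjusted p = 0.00196), Defa17 beside Gm15315 (log2 fold change 3.02 ± 0.18 (SE), adjusted p = 0.00326) and LOC100862126 (Defa36) beside Gm7849 (log2 fold change 1.19 ± 0.15 (SE), adjusted p = 0.014) moved with their members, within a family whose reads can be shared. Ninj1, which ruptures the membrane of dying cells, had 11.7 and 11.2 rpkm in p53(+/+), 25.9 and 14.5 in p53(flox/flox) and 6.25 and 7.14 in p53(M/M) beside Card19 (log2 fold change 1.41 ± 0.27 (SE), adjusted p = 0.0237). Psca, a surface antigen, had 4.40 and 4.61 rpkm in p53(+/+), 24.3 and 70.6 in p53(flox/flox) and 8.11 and 9.11 in p53(M/M) beside Them6 (log2 fold change 2.15 ± 0.48 (SE), adjusted p = 0.0327), a call lost with the length and GC trend removed (1.31 ± 0.64, adjusted p = 0.178).

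Another 3 neighbours were called with members of moderate ratio: Tmem125 beside 2610528J11Rik (log2 fold change 0.97 ± 0.19 (SE), adjusted p = 0.0259), Zfp442 beside 3300002I08Rik (log2 fold change 1.06 ± 0.26 (SE), adjusted p = 0.0411) and Cdc34, a ubiquitin-conjugating enzyme, beside Tpgs1 (log2 fold change 1.10 ± 0.19 (SE), adjusted p = 0.0193). With the length and GC trend removed the calls of Cdc34 (0.16, adjusted p = 0.176) and Zfp442 (0.93, adjusted p = 0.0667) were lost. Mrpl17 beside Gm4070 (log2 fold change -0.999 ± 0.16 (SE), adjusted p = 0.0162) and Luc7l2 beside Fmc1 (log2 fold change -0.68 ± 0.10 (SE), adjusted p = 0.0135) were called against their member. The members with the greatest ratios had neighbours that were not called: Aim2, an innate DNA sensor 71791 nt from Mptx2, had 5.97 and 6.62 rpkm in p53(+/+), 36.9 and 1.65 in p53(flox/flox) and 20.6 and 19.2 in p53(M/M) (log2 fold change -1.52 ± 1.19 (SE), adjusted p = 0.437), and Ccdc88c beside Dglucy had 10.6 and 11.1 rpkm in p53(+/+), 4.32 and 8.68 in p53(flox/flox) and 6.95 and 7.83 in p53(M/M) (log2 fold change 0.73 ± 0.29 (SE), adjusted p = 0.146). Gsta1 had 67.7 and 105 rpkm in p53(+/+), 10.1 and 40.7 in p53(flox/flox) and 10.8 and 13.2 in p53(M/M) beside Gm3776 (log2 fold change 2.72 ± 0.63 (SE), adjusted p = 0.0527), and Irx5, 1676 nt from Crnde, had 3.90 and 3.98 rpkm in p53(+/+), 8.29 and 1 in p53(flox/flox) and 18.9 and 21.97 in p53(M/M) (log2 fold change 2.11 ± 0.70 (SE), adjusted p = 0.111). In Aim2, Gsta1 and Irx5 the p53(flox/flox) libraries stood far apart. That spread entered the error of their contrasts, which compared p53(M/M) and p53(+/+). With only the compared genotypes fitted, 3136 of all 10042 rows were called higher and 2585 lower in p53(M/M) than in p53(+/+). Among so many calls Aim2 was called against its member (log2 fold change -1.52 ± 0.08 (SE)). Gsta1 (log2 fold change 2.72 ± 0.22 (SE)) and Mrpl55 (log2 fold change 0.62 ± 0.10 (SE)) were then called with their members. In such fits 16 of the 63 neighbours were called with their member, against 19 in the fit of all genotypes.

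**Figure D5:**
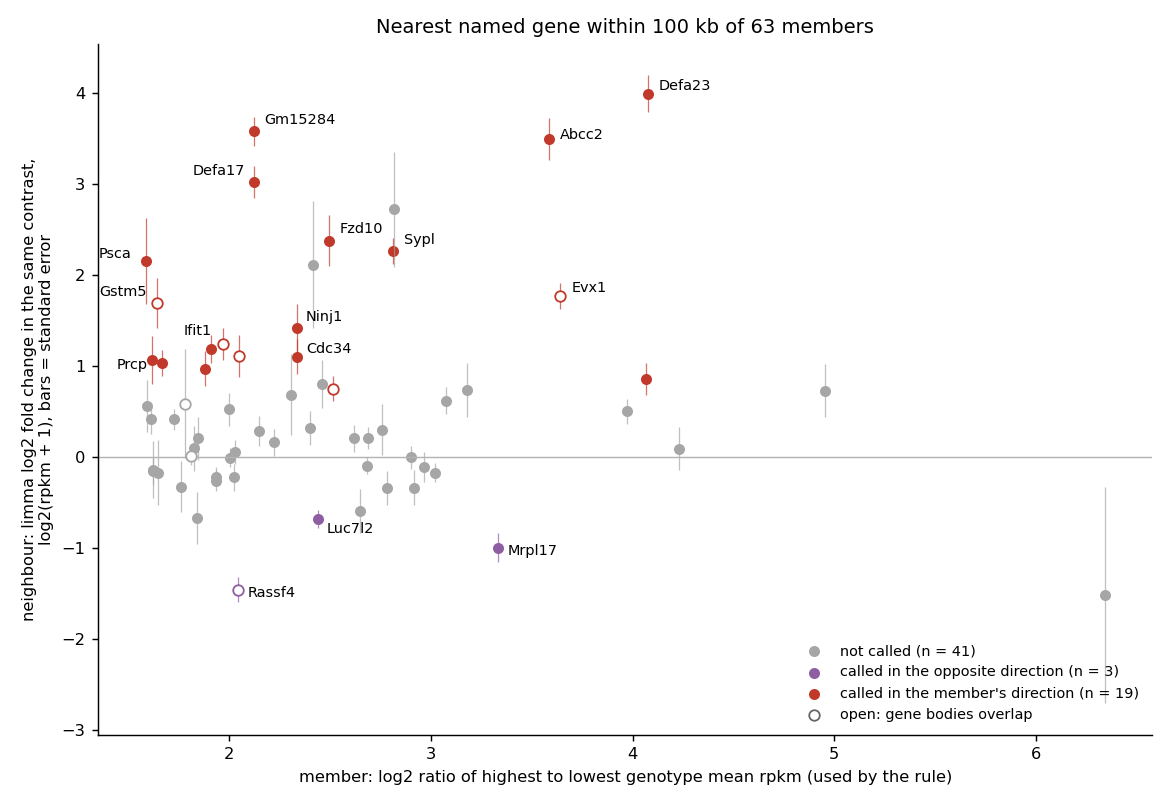
Each point is the nearest named gene within 100 kb of a member, placed by the member's log2 ratio of highest to lowest genotype mean (x axis, used by the definition) and by the neighbour's own limma log2 fold change in that contrast (y axis, log2(rpkm + 1), bars are the standard error). Of the 63 neighbours 19 were called in the member's direction (red), 3 against it (purple) and 41 not (gray), and open points mark the 8 overlapping pairs.

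Further neighbours within 10 kb of a member were not called. They included Apobec3, which overlaps D730005E14Rik (log2 fold change 0.59 ± 0.60 (SE), adjusted p = 0.506), Rtn3, which overlaps 2700081O15Rik (log2 fold change 0.01 ± 0.10 (SE), adjusted p = 0.959), Rap1a beside Inka2 (log2 fold change -0.23 ± 0.15 (SE), adjusted p = 0.324), Pik3cb beside Gm1123 (log2 fold change 0.50 ± 0.14 (SE), adjusted p = 0.0772), Vps8 beside 2510009E07Rik (log2 fold change 0.09 ± 0.24 (SE), adjusted p = 0.791), Hes6 beside 1700020N18Rik (log2 fold change 0.31 ± 0.19 (SE), adjusted p = 0.32), and Phgr1 beside Ccdc9b (log2 fold change 0.80 ± 0.27 (SE), adjusted p = 0.107). Another 9 had log2 fold changes between -0.26 and 0.55, positive in the member's direction. They were Ssu72 beside Fndc10, Rpl7l1 beside 2310039H08Rik, Ciz1 beside 1110008P14Rik, BC046404 beside 2410006H16Rik, Tmem173 beside 1700066B19Rik, Cd200 beside Gm609, Rab3ip beside Myrfl, Tmx2 beside Selenoh, and Asna1 beside Trir.

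Members lay on every autosome and on the X chromosome. Chromosomes 8 and 7 held the most, with 11 and 10 among the 39 and 37 Rik and Gm rows there that passed the filter. Over all chromosomes there were 90 among 541. How many other Rik and Gm rows lie within 1 Mb of each other was not counted. Among the members 12 pairs of next neighbours did, of which 8 shared a pattern. Outside the GTPase and defensin clusters these included Firre and Stk26, 205853 nt apart on the X chromosome in different patterns, and 2200002D01Rik and C230062I16Rik, 703586 nt apart on chromosome 7, both low only in p53(M/M). Of the 87 members with a transcript, 43 shared no 50-base window with another gene, 57 shared under 10% and 12 over 50%.

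Members just inside the limits resembled rows just outside. At the 3-fold limit 4930572J05Rik (3.003) and 2310036O22Rik (3.01) were taken and A930001N09Rik (2.9998) and 3110082I17Rik (2.98) were not. At the 4 rpkm limit Gm14446 (4.02 rpkm in its highest library) and 6530418L21Rik (4.17) were taken, and D730048I06Rik and 5830473C10Rik, both at 3.83 rpkm and over 3-fold, were not. Gm12603, 4930452B06Rik and B020031M17Rik exceeded 3-fold but had 1 high and 1 low p53(flox/flox) library and so were left out.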

How the data were processed

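RNA from 6 organoid lines was sequenced after poly(A) selection with a stranded kit. The authors mapped reads to mm10 with StrandNGS and deposited rpkm per gene, with a floor of 1 rpkm. The StrandNGS version, annotation, read filters and use of strand in counting are not given in the sources used here, and the deposited table holds no counts. All 6 rpkm columns were matched to their samples by name.

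The members, gene lists and tests were chosen with earlier results of these data known. A row entered the tests when any library reached 4 rpkm. Pattern was set by the gap on the log scale between the ordered genotype means. All 10042 rows were fitted together with limma 3.58.1 (R 4.3.3) on log2(rpkm + 1), with a trend in the prior variance, genotype as the factor and no block. Tests were two-sided and Benjamini-Hochberg adjusted over those rows, with calls at an adjusted p under 0.05. Fold changes on this scale understate those of low genes. The p-values rest on a residual variance per gene pooled over all genotypes, with 2 mice a genotype. The wide p53(flox/flox) spread therefore also entered the contrast of p53(M/M) and p53(+/+). With only the 2 compared genotypes fitted, 3136 rows were called higher and 2585 lower in p53(M/M), against 588 and 639. For p53(flox/flox) against p53(+/+) the calls fell to 9 and 38, against 440 and 693. For simulated log2 changes of 2 between p53(M/M) and p53(+/+), 180 of 200 genes among 9524 were recovered with 0 false calls. The simulated noise was independent, with 1 spread for each genotype, and only genes above a set mean level were changed. It held no length or GC trend and no spread particular to a gene, so it cannot give the rate of false calls in the real data.

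Members named with values were, in each pattern, up to 12 with the largest ratios, the 8 most abundant, those that overlap or lie within 10 kb of a measured neighbour, and those at the limits of the definition, besides Trp53, Cdkn1a and Mdm2. Others named with values were chosen after their values were seen. Placement, symbols, classes and promoters came from RefSeq on GRCm38, and lengths, GC content and shared 50-base windows from GENCODE M21. Alternatives covered the filter, fold, pseudocount, scaling, block, weights, samples fitted and reach of a neighbour. Removal of the length and GC trend (20 bins of each) and counting each neighbour once were added after seeing the data. The values of 3 neighbours are not reported here.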

Additional observations from a re-analysis of the deposited data

How the results depend on the processing

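The number of members depended on where the limits were set. With at least 8 rpkm the definition took 57 rows, with at least 2 times 186, with at least 4 times 55, with 1 rpkm added to both means 49, and with at least 3 times in every pair of libraries 59. Of the 90 members 57, 55, 47 and 59 kept their pattern under the 8 rpkm, 4 times, added rpkm and every-pair settings. Without each library in turn 80 to 132 rows were taken and 68 to 85 members kept their pattern. Neighbours called in the member's direction numbered 2 to 32 without each library in turn and 14 to 24 under all other settings, where the reach of a neighbour also changed how many were tested. In fits without a library the lone library of that genotype was assumed to vary like the others. Leaving out each library in turn gave 1 to 23 p53 targets called lower in p53(flox/flox) and 0 to 21 in p53(M/M), with 16 to 24 at an unadjusted p under 0.05. Fitting the 2 genotypes alone called 5 lower in p53(flox/flox), and weights for each genotype called 9.

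Replicate numbers stood for different mice and did not pair the libraries, whose same-numbered deviations correlated at 0.12, -0.29 and -0.20. With the replicate block 15 neighbours were called with their member, and 9 p53 targets were lower in p53(flox/flox). The log2 fold changes of 3 neighbours changed sign with a call on either side: Apobec3 beside D730005E14Rik without p53(flox/flox) replicate 2 (-0.37, and 1.54 without replicate 1), Itsn2 beside Gm6682 without p53(flox/flox) replicate 1 (0.34, and -0.62 without replicate 2), and Yif1b beside 2200002D01Rik with the length and GC trend removed (-0.14). Those of 10 other neighbours changed sign under at least 1 alternative with no call on either side. The causes of these changes were not tested. Without counts or depth, no limit on detection below 1 rpkm can be given.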
